A study of Mus musculus with 16 samples.

Results

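The Period genes Per1, Per2 and Per3 encode the PER proteins of the mammalian circadian clock. Their promoter contacts were followed through the day in mouse liver by Promoter Capture Hi-C (P-CHi-C), an assay that lists which restriction fragments of the genome lie close to captured promoter fragments. The members were the 3 captured fragments, called baits, that hold the annotated gene starts of Per1, Per2 and Per3. A fragment was counted as a bait if it stood in the bait column of at least 1 list, which gave 18165 baits. Captured fragments without such a listing are not among them. Of 247177 distinct fragment pairs listed over the day, 50 had an end on one of these 3 baits, and all 50 joined fragments of the same chromosome. The livers came from male C57BL/6 mice with a stated age of 8 weeks, kept under 12 h light and 12 h dark for 2 weeks with free access to food, and were taken at zeitgeber time (ZT, hours since lights on) 0, 6, 12 and 18. Lights went on at ZT0 and off at ZT12, and all 4 groups shared strain, sex, age and feeding. Each timepoint had 3 pools of 2 livers, pool A was sequenced on 2 lanes, and the pools of a timepoint were merged before contacts were called. Each timepoint therefore had 1 list, no value has a replicate error, and no difference between timepoints was tested.

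In the clock, the transcription factors BMAL1 (gene Arntl) and CLOCK bind E-box sequences and switch on the Period and Cryptochrome genes, whose protein products then return to the nucleus and repress BMAL1 and CLOCK. PER1 and PER2 are the main PER proteins of this negative limb, while PER3 has a weaker role in the central rhythm. In mouse liver the Period transcripts cycle strongly and are most abundant around the change from light to dark.

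Per1 and Per2 had their largest number of listed contacts at ZT12, the onset of darkness, and Per3 did not. Per1 had 5 contacts at ZT0 and 7 at ZT6, then 19 at ZT12 and 12 at ZT18. Per2 had 9 contacts at ZT0 and 10 at ZT6, then 19 at ZT12 and 13 at ZT18. Per3 had 4 contacts at ZT0 and 6 at ZT6, then 4 at ZT12 and 3 at ZT18. Both Per1 and Per2 thus had low numbers in the light phase, a peak at lights off and an intermediate number in the dark, whereas Per3 stayed low at all 4 timepoints.

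**Figure D1:**
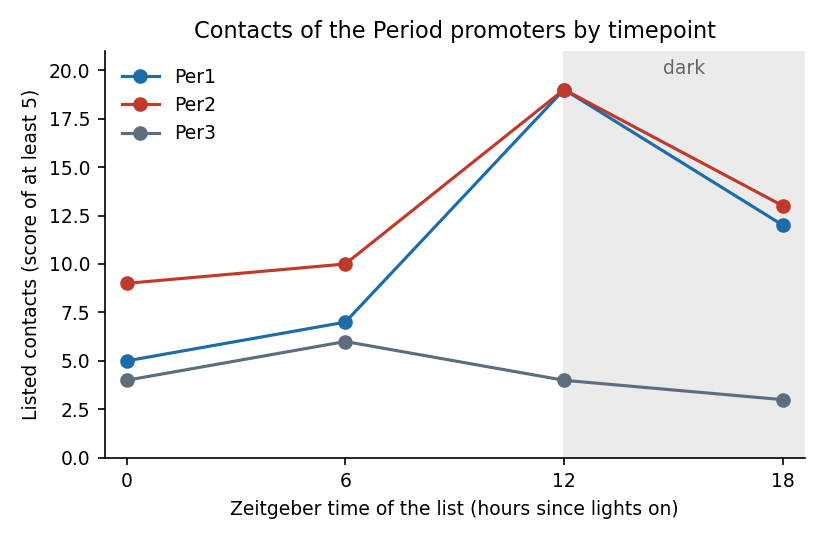
Number of listed contacts (vertical axis, pairs with a score of at least 5) of the Per1, Per2 and Per3 baits in the list of each timepoint (horizontal axis, hours since lights on; grey, dark phase). Each point is 1 merged list, so there is no error bar. Per1 and Per2 both reach 19 contacts at ZT12, while Per3 lies between 3 and 6 throughout.

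Per1 (ENSMUSG00000020893) lies on the forward strand of chromosome 11 with its annotated start at 68908719 (build mm9), on the bait fragment from 68908170 to 68909614. Per2 (ENSMUSG00000055866) lies on the reverse strand of chromosome 1 with its start at 93355907, on the bait from 93348814 to 93356668. Per3 (ENSMUSG00000028957) lies on the reverse strand of chromosome 4 with its start at 150418774, on the bait from 150415705 to 150427274. The Per1 bait is short, with 1445 bp, against 7855 bp for Per2, 11570 bp for Per3 and a median of 5861 bp over all baits. No other gene starts on any of these baits.

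The Per1 bait holds 1 of the 6 annotated Per1 transcript starts, the one farthest upstream. Of the other 5, the starts at 68912450, 68913654 and 68913660 lie on the fragment from 68911167 to 68913736, and those at 68914011 and 68914024 on the next fragment. Neither fragment was listed as a bait, so the Per1 contacts below are those of the upstream start. Both annotated Per2 transcripts and 3 of the 5 Per3 transcripts start on their baits.

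The sequences before the Per1 and Per3 starts are shown because E-boxes and D-boxes are elements through which clock factors act on the Period genes. None is shown for Per2. A D-box is bound by the clock output factors DBP, TEF and HLF and by their antagonist NFIL3. Capitals mark matches on either strand to the E-box CACGTG, the E'-box CACGTT, the D-box TTATGTAA, the ROR element AGGTCA or the cAMP element TGACGTCA. Each stretch is the 250 bases before a start, read in the direction of transcription, with positions on mm9. The upstream Per1 stretch, chr11:68908469-68908718 on the forward strand, lies on the Per1 bait before its annotated start. The RefSeq Per1 stretch, chr11:68912201-68912450 on the forward strand, lies before the first Per1 start in RefSeq. The Per3 stretch, chr4:150418775-150419024 on the reverse strand, lies before the RefSeq start of Per3. The RefSeq Per1 and Per3 stretches were taken from RefSeq promoter windows of build GRCm38.p6 and placed on mm9 by an exact and single sequence match.
Per1, upstream start on the bait: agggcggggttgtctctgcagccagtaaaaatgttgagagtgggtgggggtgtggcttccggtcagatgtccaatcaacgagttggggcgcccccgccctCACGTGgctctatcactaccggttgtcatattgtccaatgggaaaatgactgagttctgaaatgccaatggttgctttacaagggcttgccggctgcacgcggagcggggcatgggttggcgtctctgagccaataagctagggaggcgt
Per1, RefSeq start: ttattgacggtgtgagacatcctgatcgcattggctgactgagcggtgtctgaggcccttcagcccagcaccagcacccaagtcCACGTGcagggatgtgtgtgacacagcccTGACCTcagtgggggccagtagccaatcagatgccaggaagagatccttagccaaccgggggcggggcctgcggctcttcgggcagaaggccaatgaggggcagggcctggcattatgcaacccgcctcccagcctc
Per3: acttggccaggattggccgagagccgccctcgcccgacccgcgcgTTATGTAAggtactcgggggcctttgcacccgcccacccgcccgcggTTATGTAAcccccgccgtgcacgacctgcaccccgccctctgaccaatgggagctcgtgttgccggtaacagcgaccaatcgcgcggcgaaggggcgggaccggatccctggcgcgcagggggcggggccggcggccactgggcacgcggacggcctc

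Both Per1 stretches hold 1 E-box, a match that 6.02% of 32851 RefSeq promoter windows hold in the same 250 bases. The stretch before the RefSeq start also holds 1 ROR element, read on the opposite strand, which 14% of windows hold. The Per3 stretch holds 2 D-boxes and no E-box. A D-box match was found in 0.819% of windows, and 6 of the 32851 windows, or 0.0183%, hold 2 or more. The second RefSeq start of Per1 has none of the 5 motifs in its 250 bases. Along the whole baits, the Per1 fragment holds 2 E-boxes and the Per3 fragment holds no E-box, 1 E'-box, 7 D-boxes and 7 ROR elements. The Per1 bait has 1445 bp and the Per3 bait 11570 bp, so their counts are not comparable. The shares above are for 250 bases and do not apply to whole baits.

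Over all baits with at least 10 contacts, the number at ZT12 was at least 1.5 times that at ZT0 in 14.9% and at least 2 times in 5.79%. Per1 had 3.8 times and Per2 2.11 times as many contacts at ZT12 as at ZT0, so both passed the higher fold, and Per3 had a ratio of 1. The median ratio over 8808 such baits was 1.02. The Per1 ratio was above that of 99.4% of these baits and the Per2 ratio above 96.2%. More contacts at ZT12 than at each of the other timepoints were found for 20.9% of baits, and Per1 and Per2 were among them. A table given by the study has the lists in another order than the sample labels. Read in that order, the peak of both genes lies at ZT6 and the ZT12 to ZT0 ratios are 2.4 and 1.44. The study describes the Arntl promoter with 3 contacts at ZT0, 2 at ZT18 and none at ZT6 or ZT12. The sample labels give those same counts for Arntl, whereas the other order would place the 2 at ZT12.

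The lists themselves were of similar size, with 146262 pairs at ZT0 and 154775 at ZT6, then 151529 at ZT12 and 151347 at ZT18. Per 100000 listed pairs, Per1 had 3.42 contacts at ZT0 and 4.52 at ZT6, then 12.5 at ZT12 and 7.93 at ZT18. On the same scale Per2 had 6.15 at ZT0 and 6.46 at ZT6, then 12.5 at ZT12 and 8.59 at ZT18. The order of the timepoints was therefore the same per listed pair as by plain count. Depth in valid reads was not used here.

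**Figure D2:**
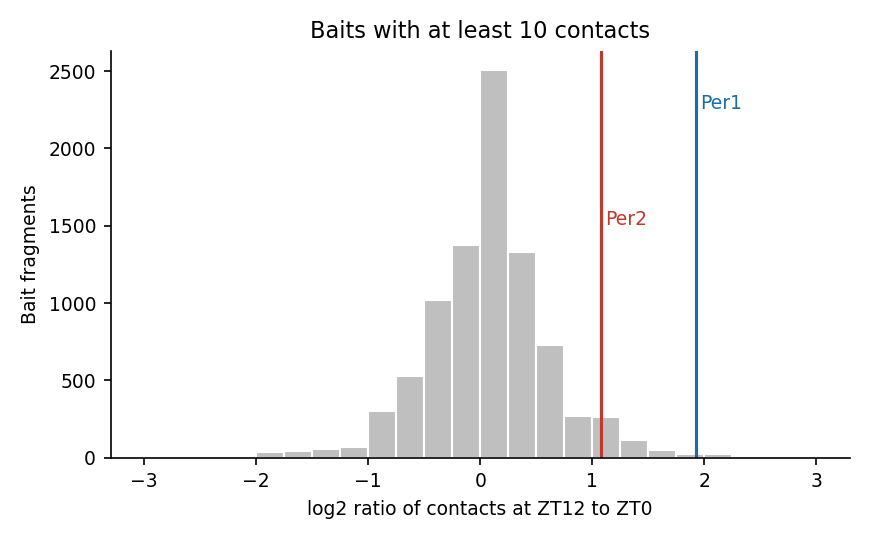
Distribution of the log2 ratio of contacts at ZT12 to contacts at ZT0 (horizontal axis) over 8799 baits with at least 10 contacts and some at both timepoints, with the number of baits on the vertical axis. Ratios beyond 3 log2 units are in the end bars. The lines mark the ratios of Per1 (3.8) and Per2 (2.11), both in the right tail. Per3, with 8 contacts, is not among these baits.

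The scores of the contacts differed in the same direction, which is not separate from the counts, because listing depends on the score. Each listed pair has a CHiCAGO score, which rises as the reads joining a pair exceed a background set by distance and assay noise, and a pair enters a list at a score of 5. Among all pairs listed at both ZT0 and ZT12, 52.9% scored higher at ZT12. All 5 Per1 contacts listed at both timepoints scored higher at ZT12, with a median difference of 1.35 score units and a range from 1.08 to 2.28. All 9 such Per2 contacts scored higher at ZT12 as well, with a median difference of 1.37 and a range from 0.65 to 4.26. The series holds 6705 baits with at least 10 contacts, 5 or more of them listed at both timepoints. In 2.00% of these baits each shared contact was higher at ZT12. They include baits with far more shared contacts, such as Bhlhe40 with 99. The share is therefore not matched to the 5 of Per1 or the 9 of Per2. When fragments within 10 kb were merged, the 5 Per1 contacts fell in 3 blocks and the 9 Per2 contacts also in 3. Neighbouring fragments are thus not separate observations. Of the 2 Per3 contacts listed at both timepoints, 1 was higher and 1 lower at ZT12.

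**Figure D3:**
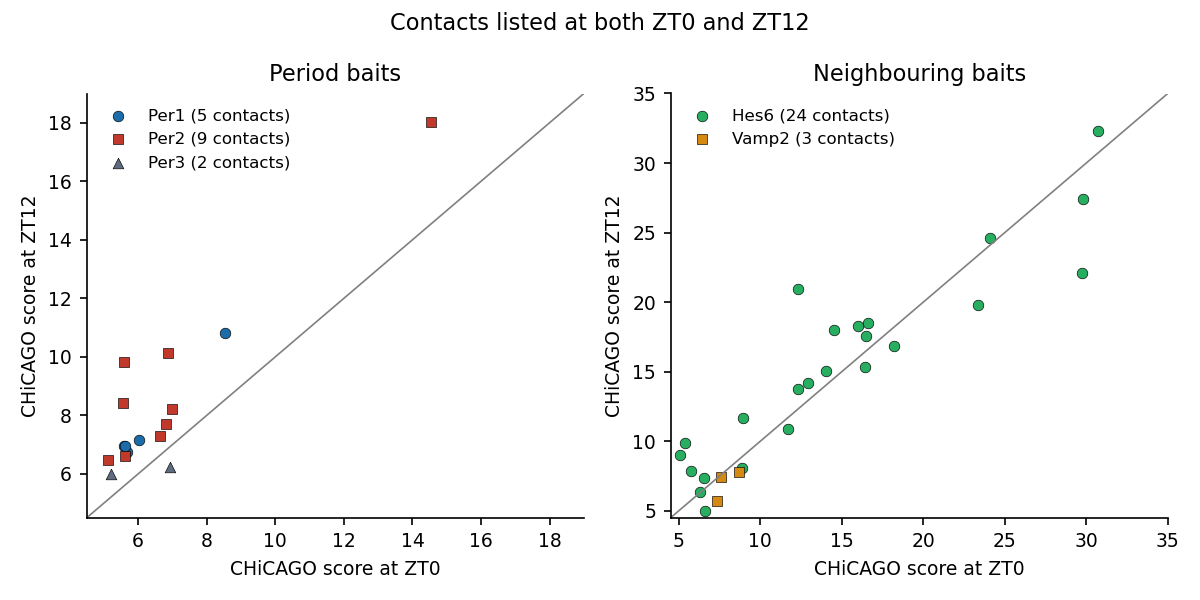
CHiCAGO scores at ZT0 (horizontal axis) and ZT12 (vertical axis) of contacts listed at both timepoints, for the Period baits (left) and the neighbouring baits of Hes6 and Vamp2 (right). Each point is 1 contact and the line marks equal scores. All 5 Per1 and all 9 Per2 contacts lie above the line, while the 3 Vamp2 contacts lie below it and 16 of the 24 Hes6 contacts above it.

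From ZT12 to ZT18 the scores of shared contacts differed the other way. Of 10 Per1 contacts listed at both of these timepoints, 8 scored lower at ZT18, with a median difference of -0.64. Of 13 such Per2 contacts, 10 scored lower at ZT18, with a median difference of -0.81. Over all pairs listed at both ZT12 and ZT18 the median difference was 0. The highest score of the day was at ZT12 for 16 of 22 Per1, 16 of 20 Per2 and 3 of 8 Per3 contacts. Over all pairs it was at ZT12 for 25.1%. Contacts listed at ZT12 alone count here by definition, 6 of Per1, 6 of Per2 and 1 of Per3. The count is therefore not separate from the number of contacts listed at ZT12.

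Most of these contacts lay close to the score minimum. The highest score of the day was under 7 for 15 of 22 Per1 contacts, 13 of 20 Per2 contacts and 7 of 8 Per3 contacts. A score under 6 was found for 44.2% of the Per1 listings, 33.3% of the Per2 listings and 58.8% of the Per3 listings, against 30.7% of all listings. A contact absent from a list may have scored just under 5 there, so absence is no measurement of a low contact frequency.

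The contacts of the 3 genes differed in reach. Per1 contacts lay between 17 kb and 1140 kb from the bait, with a median of 274 kb, and 15 of 22 were downstream of the start. Per2 contacts lay between 6.71 kb and 78.6 kb, with a median of 33.4 kb, 10 upstream and 10 downstream. Per3 contacts lay between 10 kb and 996 kb, with a median of 642 kb. The other end was itself a bait in 9 of 22 Per1 contacts, 2 of 20 Per2 contacts and 7 of 8 Per3 contacts. Most Per3 contacts and some of those of Per1 thus joined distant promoters, while Per2 mainly contacted non-promoter fragments within 100 kb. The corresponding share and distance over all pairs are not given here, so these values describe the 3 genes only. Those of Per3 rest on 8 contacts.

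**Figure D4:**
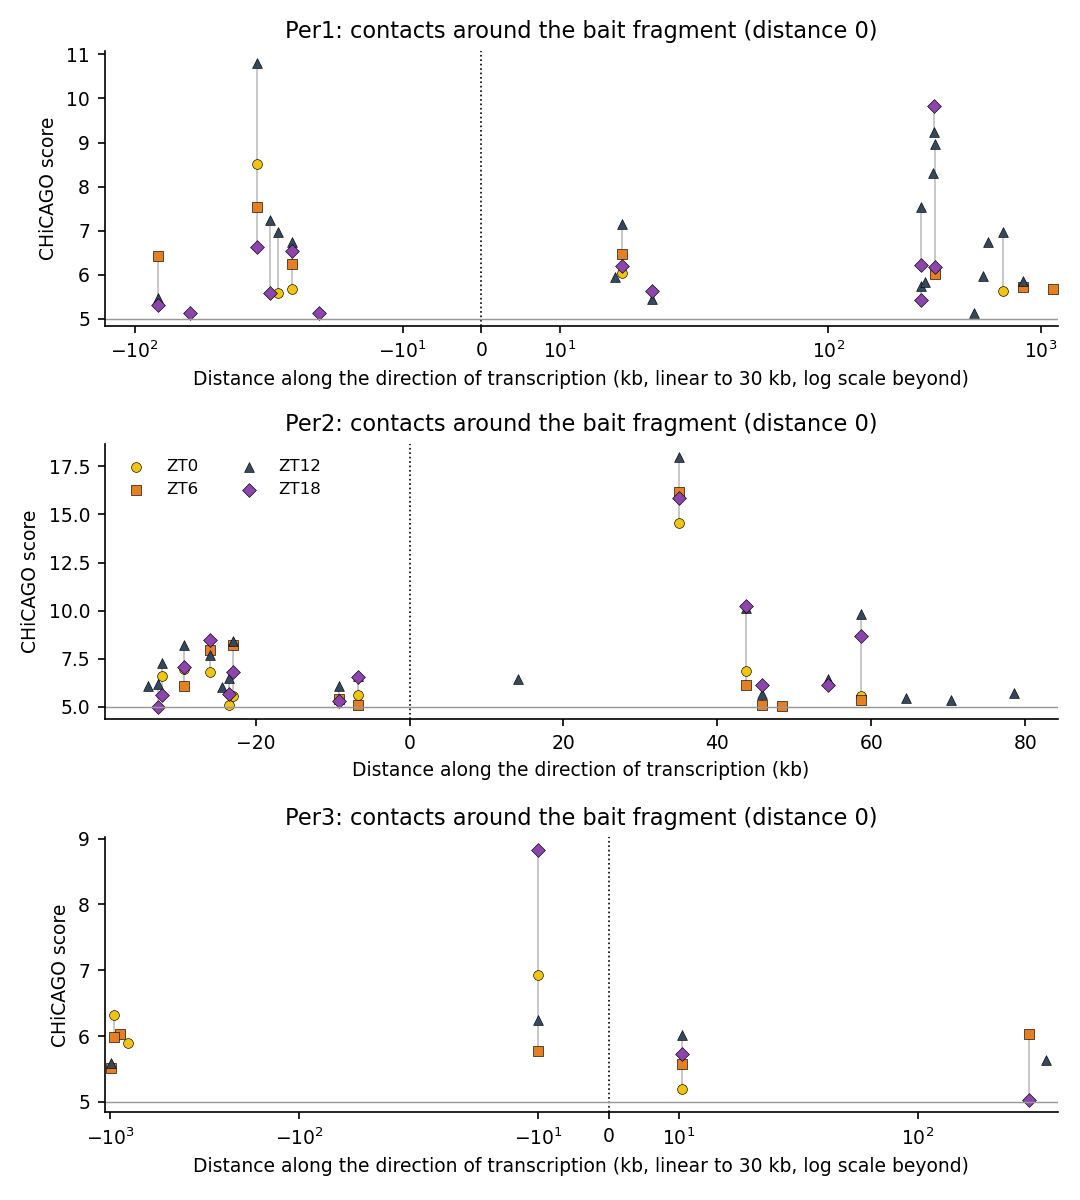
CHiCAGO score (vertical axis) of each contact of Per1 (top), Per2 (middle) and Per3 (bottom) against the distance of the contacted fragment from the bait (horizontal axis, kb, positive in the direction of transcription; log scale beyond 30 kb for Per1 and Per3). Symbols give the timepoint and grey lines join scores of the same fragment. The contacts of Per1 around 315 kb downstream, at Kdm6b, have no ZT0 symbol, while the Per2 contact at 35 kb, at Hes6, has the highest Per2 score at all 4 timepoints.

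Of 22 Per1 contacts, 3 were listed at all 4 timepoints (13.6%, 95% Wilson interval 4.75 to 33.3%, which covers counting error only and takes contacts as independent). The corresponding number was 7 of 20 for Per2 (35%, 18.1 to 56.7%) and 2 of 8 for Per3 (25%, 7.15 to 59.1%). Over all pairs it was 32.5%, which lies within all 3 intervals. At a single timepoint 9 Per1, 7 Per2 and 3 Per3 contacts were listed. For Per1 and for Per2, 6 of these single listings were at ZT12, and for Per3 1 was. The share of all pairs listed at a single timepoint is not given here, so these counts are not set against the series.

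The contacts of Per1 kept through the day were near the gene. The strongest was an intergenic fragment 28.5 kb upstream, from 68879488 to 68881225, which scored 8.52 at ZT0 and 7.53 at ZT6, then 10.8 at ZT12 and 6.62 at ZT18. The fragment with the start of Tmem107, which encodes a membrane protein of the primary cilium, lay 24 kb upstream and scored 5.67, 6.24, 6.75 and 6.53 in the same order. An intergenic fragment 17.9 kb downstream scored 6.03, 6.47, 7.16 and 6.2. All 3 scored highest at ZT12. Around the strongest of them, 2 further fragments were listed at ZT12, at 7.24 and 6.96. The first of these was also listed at ZT18, at 5.58, and the other at ZT0, at 5.59.

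This strongest Per1 contact holds 2 E-boxes, and the 60 bases around each are shown because the fragment is intergenic and shared with other promoters of the locus. Capitals mark the E-box. They lie at chr11:68879670-68879729 and chr11:68879737-68879796 of mm9, forward strand.
Upstream E-box, first: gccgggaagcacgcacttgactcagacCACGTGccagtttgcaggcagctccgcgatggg
Upstream E-box, second: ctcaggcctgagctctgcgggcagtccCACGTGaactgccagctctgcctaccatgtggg

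The distant contacts of Per1 were absent at ZT0 with 1 exception. The most prominent were 3 adjoining fragments 311 to 319 kb downstream at Kdm6b, which encodes a histone demethylase that removes methyl groups from H3K27. None of them was listed at ZT0, 1 was listed at ZT6, all 3 at ZT12 and 2 at ZT18. The fragment with the Kdm6b start scored 6.01 at ZT6, then 8.97 at ZT12 and 6.18 at ZT18. The fragment within Kdm6b, from 69220965 to 69227027, scored 9.24 at ZT12 and 9.82 at ZT18, and the remaining one scored 8.3 at ZT12. The fragment within Kdm6b holds 3 E-boxes. All 3 lie outside annotated exons, within introns of Kdm6b, and the one at chr11:69226049-69226108 (forward strand) is shown here beside the upstream ones.
Kdm6b E-box: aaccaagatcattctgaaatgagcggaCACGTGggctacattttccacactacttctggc

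Chd3, which encodes an ATP-dependent chromatin remodeller of the NuRD complex, was contacted at ZT12 and ZT18. Its start fragment, 273 kb downstream of Per1, scored 7.53 at ZT12 and 6.22 at ZT18 and was not listed at ZT0 or ZT6. The adjoining fragment scored 5.74 at ZT12 and 5.42 at ZT18. The start fragment of Fxr2, which encodes an RNA-binding protein, was listed at ZT12 at 5.97. A fragment overlapping Mpdu1, a gene of glycan synthesis, was listed at ZT12 at 6.74. The start fragment of Eif5a, a translation factor, scored 5.71 at ZT6 and 5.86 at ZT12. The exception at ZT0 was the start fragment of Amac1, 667 kb downstream, which scored 5.62 at ZT0 and 6.97 at ZT12. The farthest contact, the start fragment of 0610010K14Rik at 1140 kb, was listed at ZT6 at 5.68.

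Of the remaining Per1 contacts, the start fragment of 1500010J02Rik, 77.5 kb upstream, scored 6.43 at ZT6, then 5.47 at ZT12 and 5.3 at ZT18. The fragments 54.8 kb and 20.7 kb upstream were listed at ZT18, at 5.14 and 5.13, the nearer one holding the start of Snord118, a small nucleolar RNA gene. The fragments 286 kb and 487 kb downstream were listed at ZT12, at 5.83 and 5.12. Close to the gene, a fragment 17 kb downstream scored 5.94 at ZT12, and one 21.7 kb downstream scored 5.45 at ZT12 and 5.63 at ZT18. The scores of these remaining contacts lay mostly within 1 unit of the minimum.

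Per1 was also contacted by other promoters through the rest of its gene body. Outside the bait, 4 fragments overlap the Per1 gene, and 8 other baits outside the gene were listed with them in 15 pairs. Of these pairs, 4 were listed at ZT0 and 4 at ZT6, then 11 at ZT12 and 10 at ZT18. Listed at both ZT0 and ZT12 were 3 of them, 2 with a higher score at ZT12. The corresponding counts over the gene bodies of the series are not given here. The fragment with 3 further Per1 transcript starts was listed with the Tmem107 bait at ZT12, at 5.01, and with the Kdm6b bait at ZT12, at 5.27, and at ZT18, at 6.08. The start fragments of Tmem107 and Kdm6b were thus listed with the upstream Per1 start and with this fragment. The Per2 gene body had 2 such pairs, both listed at ZT0 and ZT12, and the Per3 gene body had none.

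The highest score of Per2 was that of its contact with Hes6, which encodes a basic helix-loop-helix factor of the HES family. The fragment from 93310517 to 93324958 holds the annotated start of Hes6 and the end of Per2 and lies 35 kb downstream of the Per2 bait. It scored 14.55 at ZT0 and 16.17 at ZT6, then 18.01 at ZT12 and 15.84 at ZT18. The next fragment, which overlaps Hes6 and holds a further RefSeq start of it, scored 6.86, 6.16, 10.12 and 10.24 in the same order. Both fragments were therefore listed all day, the first with its lowest score at ZT0 and the other at ZT6.

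Farther along, Per2 contacted Ilkap, which encodes a protein phosphatase associated with integrin-linked kinase. A fragment of 741 bp inside Ilkap, without an annotated exon, scored 5.58 at ZT0 and 5.34 at ZT6, then 9.84 at ZT12 and 8.7 at ZT18, a ZT12 to ZT0 difference of 4.26, the largest among the Period contacts listed at both timepoints. The fragment with the Ilkap start was absent at ZT0 and ZT6 and scored 6.46 at ZT12 and 6.15 at ZT18. The 3 fragments beyond it, 64.5 to 78.6 kb from the bait, were listed at ZT12 alone, at 5.48, 5.36 and 5.71. Between Hes6 and Ilkap, a fragment at 45.7 kb scored 5.09 at ZT6, 5.65 at ZT12 and 6.13 at ZT18, and one at 48.3 kb scored 5.04 at ZT6. Listed Per2 contacts on this side thus extended farther at ZT12 than at ZT0.

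Upstream of Per2, 8 adjoining fragments 22.9 to 34 kb away formed an intergenic block of 12.5 kb. Listed were 5 of them at ZT0 and 3 at ZT6, then all 8 at ZT12 and 6 at ZT18. The first of them scored 5.57 at ZT0 and 8.24 at ZT6, then 8.41 at ZT12 and 6.79 at ZT18. The fragment with the highest score in the block scored 6.8, 7.96, 7.71 and 8.46, so its highest score was at ZT18. Nearer to the gene, fragments 6.71 kb and 9.16 kb upstream scored up to 6.6 and 6.11, both highest at ZT12, and a fragment within Per2 at 14.1 kb was listed at ZT12 at 6.46.

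Merging contacted fragments within 10 kb of each other gave 13 blocks for Per1, 4 for Per2 and 8 for Per3. By block, Per1 had 3 contacts at ZT0 and 6 at ZT6, then 11 at ZT12 and 6 at ZT18, so its peak at ZT12 was kept. Per2 had 3 blocks at ZT0 and 3 at ZT6, then 4 at ZT12 and 3 at ZT18. By block the ZT12 to ZT0 ratio was 3.67 for Per1 and 1.33 for Per2, which no longer reached 1.5. The larger Per2 number at ZT12 therefore came mostly from more fragments listed within the same blocks, that of Per1 from additional blocks.

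Per3 had few and mostly weak contacts. Its strongest was with the fragment holding the start of Vamp3, a membrane fusion protein of endosomes, 10 kb upstream, which scored 6.93 at ZT0 and 5.77 at ZT6, then 6.24 at ZT12 and 8.83 at ZT18. A fragment inside Per3 scored 5.2, 5.58, 6.01 and 5.73 in the same order. These 2 contacts were listed at all 4 timepoints. The other 6 were 390 to 996 kb away, and no timepoint listed more than 4 of them. Slc45a1, a sugar transporter gene, scored 6.03 at ZT6 and 5.03 at ZT18. Phf13, a chromatin reader gene, scored 6.32 at ZT0 and 5.98 at ZT6. Nol9, a gene of ribosomal RNA processing, scored 5.52 at ZT6 and 5.59 at ZT12. Camta1, a transcription activator gene, was listed at ZT0 at 5.9, Dnajc11 at ZT6 at 6.03 and the Gm13091 start within Rere at ZT12 at 5.64. The highest score of Per3 was thus at ZT18 and its largest number of contacts at ZT6.

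The neighbours of Per1 as a group did not have its profile. The bait of Vamp2, a gene of synaptic vesicle fusion, adjoins the Per1 bait and had 5 contacts at ZT0 and 6 at ZT6, then 5 at ZT12 and 6 at ZT18. At the intergenic fragment 28.5 kb upstream of Per1, Vamp2 scored 7.57 at ZT0 and 7.41 at ZT12, where Per1 scored 8.52 and 10.8. All 3 contacts that Vamp2 had at both timepoints scored lower at ZT12, with a median difference of -0.91. Vamp2 and Per1 shared 6 contacted fragments, out of 9 of Vamp2 and 22 of Per1. Among them were 2 at Kdm6b, where neither bait was listed at ZT0. Over 32 baits within 500 kb of Per1 with at least 5 contacts, the summed contacts were 334 at ZT0 and 363 at ZT6, then 363 at ZT12 and 363 at ZT18, a ZT12 to ZT0 ratio of 1.09. A ratio of at least 1.5 was found for 5 of the 32, among them Atp1b2 with 3, 14, 13 and 11 contacts. Of the pairs these baits had at both ZT0 and ZT12, 130 of 237 or 54.9% scored higher at ZT12, close to the 52.9% of all pairs. Single neighbours differed widely. Each shared contact was higher at ZT12 for Ndel1 (10 of 10) and for the U6 bait starting at 69051878 (7 of 7), as for Per1. For Rpl26 it was 1 of 10.

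Around Per2 the neighbours also had more contacts at ZT12. Over 7 baits within 500 kb with at least 5 contacts, the summed contacts were 31 at ZT0 and 38 at ZT6, then 59 at ZT12 and 54 at ZT18, a ratio of 1.9. The Ilkap bait, 46.5 kb away, had no contact at ZT0 and 2 at ZT6, then 12 at ZT12 and 8 at ZT18. The bait of Traf3ip1, which encodes a protein of ciliary transport and lies on the other side of Per2, had 2, 3, 9 and 6. Scly, a selenium metabolism gene, had 1, 0, 5 and 6. The Hes6 bait had 24, 22, 26 and 24, and 16 of its 24 contacts at both ZT0 and ZT12 scored higher at ZT12. A larger number at ZT12 than at ZT0 was thus seen on both sides of Per2, but upstream for Traf3ip1 alone. Asb1, also upstream, had 3 contacts at both timepoints, and the numbers of Hes6 differed by 2 contacts.

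**Figure D5:**
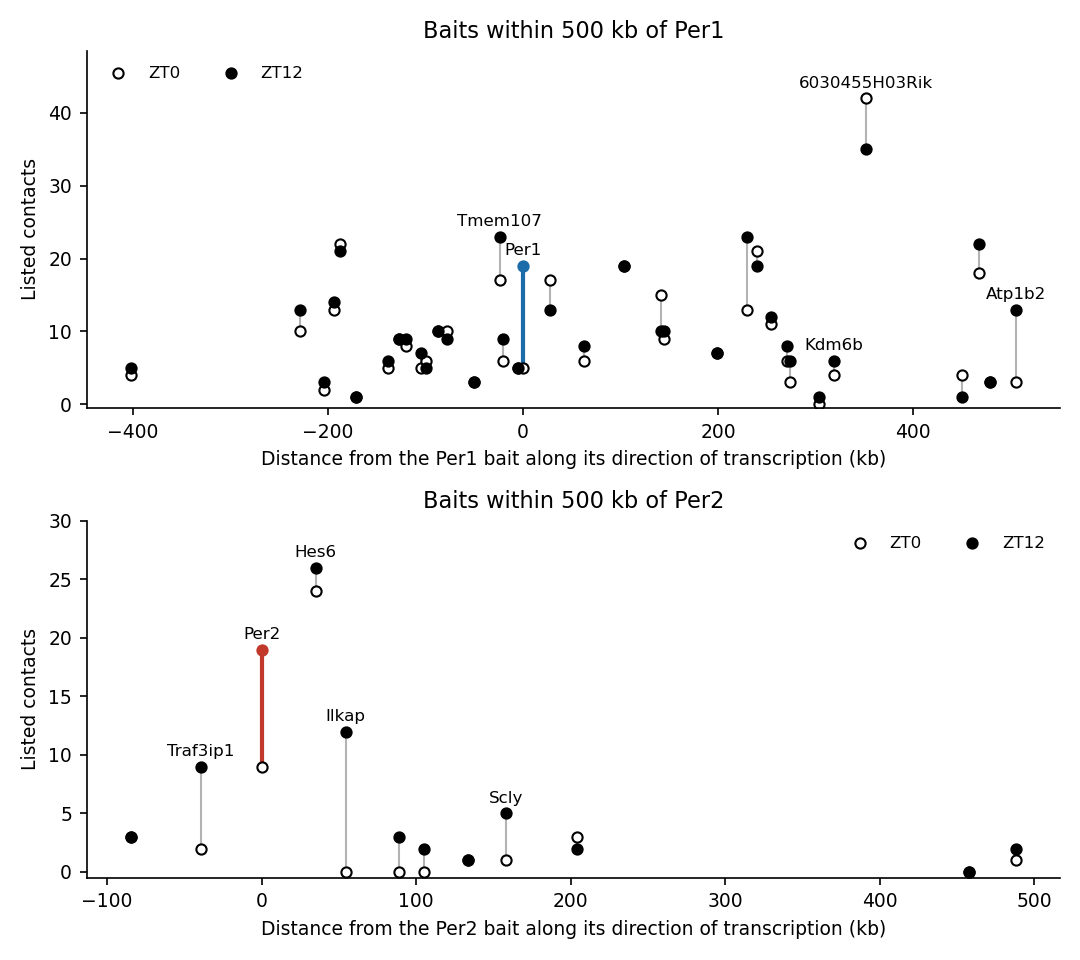
Listed contacts (vertical axis) at ZT0 (open circles) and ZT12 (filled circles) of each bait within 500 kb of Per1 (top) and Per2 (bottom), against its distance from the Period bait (horizontal axis, kb, positive in the direction of transcription). Vertical lines join the counts of a bait and the coloured line is the Period gene. Per1 goes from 5 to 19 among neighbours of mixed direction, whereas Ilkap (0 to 12) and Traf3ip1 (2 to 9) have more contacts at ZT12 beside Per2 (9 to 19).

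Per2, Ilkap and Hes6 shared contacted fragments in the intergenic block upstream of Per2. Ilkap shared 8 contacted fragments with Per2, out of 13 of Ilkap and 20 of Per2, and 6 of its contacts with the block were listed at ZT12 and none at ZT0. Hes6 was listed with all 8 fragments of the block at all 4 timepoints, with scores from 13.27 to 35.01, higher than those of Per2 at the same fragments. At the fragment with the highest Hes6 scores, Hes6 scored 30.75 at ZT0 and 35.01 at ZT6, then 32.3 at ZT12 and 27.33 at ZT18, and Per2 scored 6.8, 7.96, 7.71 and 8.46. Scores of different baits also depend on how much each bait was captured, so these values were not compared as contact frequencies.

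Around Per3, 3 baits within 500 kb had at least 5 contacts, and their summed contacts were 36 at ZT0 and 47 at ZT6, then 42 at ZT12 and 43 at ZT18. The bait of Vamp3, the nearest at 2.47 kb, had 1, 1, 2 and 3.

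Among 7546 baits with a protein-coding gene start and at least 10 contacts, the one whose shares of contacts over the 4 timepoints were most like those of Per1 was Traf3ip1, the neighbour of Per2, level with Ager. Both had a sum of absolute differences of 0.0581, followed by Calb2 with 0.0669. The nearest to Per2 were Ankle1 with 0.0209 (8, 9, 17 and 11 contacts), Lonp2 with 0.0261 and Tmem120a with 0.0294. Gpr84, Il15 and Rp2h had the same shares as Per3, a difference of 0. These likenesses rest on 4 values per bait.

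Of 22 other clock genes, 21 had a listed bait at their start. The Rora start lay on no listed bait, which does not show whether it was captured. The 13 with at least 10 contacts had a median ZT12 to ZT0 ratio of 1.4, and 5 of them had a ratio of at least 1.5, against 14.9% of all such baits. Dbp, with 11 contacts at ZT0 and 25 at ZT6, then 24 at ZT12 and 19 at ZT18, and Csnk1e, a kinase that phosphorylates PER proteins, with 4, 6, 9 and 5, reached at least 2. The largest number was at ZT12 in 6 of the 13, against 20.9% of all such baits, among them Timeless with 15, 15, 27 and 13 contacts. Tef had 9, 18, 17 and 17 contacts.

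Other clock genes had fewer contacts at ZT12 than at ZT0. Npas2, a partner of BMAL1, had 14, 8, 8 and 12 contacts, with 1 of 8 shared contacts higher at ZT12 than at ZT0. Bhlhe41, a repressor at E-boxes, had 14, 4, 8 and 3. Over the 21 clock baits, 199 of 274 contacts listed at both ZT0 and ZT12 scored higher at ZT12, or 72.6%, against 52.9% of all pairs. Most of these pairs came from Bhlhe40, with 80 of 99, and Hlf, with 55 of 65. Arntl, Clock, Cry1 and Btrc had between 1 and 3 contacts each and none at ZT12, though Clock had none at ZT0 either.

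E-boxes were counted in the contacted fragments as a description. Of the 22 Per1 contacts, 9 held at least 1 E-box, with 2.6 per 10 kb. Per2 had 5 of 20 with 0.89 per 10 kb, and Per3 had 4 of 8 with 1.52 per 10 kb. All listed fragments that are no bait had 1.38 per 10 kb, and all baits had 1.49. The density of Per1 was above both and that of Per2 below both. At least 1 E-box was held by 29.2% of all listed fragments that are no bait and by 54.6% of all baits. For Per1 this was 38.5% of 13 non-bait contacts and 44.4% of 9 bait contacts. It was 22.2% of 18 non-bait contacts for Per2 and 57.1% of 7 bait contacts for Per3.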

How the data were processed

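P-CHi-C libraries of 16 samples (4 timepoints, 3 pools each) were mapped by the authors to mm9 with HiCUP, the pools were merged, and interactions were called with CHiCAGO. Tool versions are not given in the sources used here. The deposited values are CHiCAGO scores, weighted p-values on a transformed scale, for HindIII fragment pairs scoring at least 5. Groups follow the sample labels. A summary table of the study has 3 list totals under other timepoints, and that order was an alternative. Read depth was not analysed here, and RNA data were not used here, so the tissue was not checked by marker genes.

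Python 3.11.15 was used with numpy 2.4.6 and pandas 2.3.3. Pairs were counted from both ends, distances ran between fragment midpoints, and gene starts came from GENCODE vM1. Of 129887 listed fragments, 129886 matched an mm9 HindIII digest. Wilson intervals (scipy 1.17.1) had a level of 95%. Named genes are the Period genes, genes at contacted fragments or at baits within 500 kb, the 3 baits of nearest profile, and 22 clock genes, with Ciart matched by its older name Gm129. A further gene of the clock list is not reported here. Members and lists were chosen with earlier results of these data known. Counting was tested on simulated data. Alternatives were scores of at least 7 or 10, equal list sizes, 10 kb blocks, the bait column alone, and edge distances. After the data were seen, the fold of 2, the second Per1 start fragment and 2 checks of score differences were added.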

Additional observations from a re-analysis of the deposited data

How the results depend on the processing

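No paired analysis was possible because each list merges all pools, which also meant that no pool was left out. Most Period contacts score within 2 units of the minimum, which limits all counts.

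At a score of at least 7, Per1 had 1 contact at ZT0 and 1 at ZT6, then 7 at ZT12 and 1 at ZT18, Per2 had 1, 3, 7 and 5, and Per3 had 0, 0, 0 and 1, which gives no Per3 ratio. The ZT12 to ZT0 ratio was then 7 for Per1 and 7 for Per2. At a score of at least 10, Per1 had 0, 0, 1 and 0 contacts, Per2 1, 1, 2 and 2, and Per3 0, 0, 0 and 0. Merged to blocks, Per1 had 3 at ZT0, 11 at ZT12 and 6 at ZT18, and Per2 had 3, 3, 4 and 3 over the day. The ratio was then 3.67 for Per1 and 1.33 for Per2, under the fold of 1.5. With the bait column alone, Per3 had 1, 1, 1 and 1.

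Read in the order of the study's table, Per1 had 19 contacts at ZT6, 12 at ZT12 and 7 at ZT18, Per2 had 19 at ZT6, and Per3 had 6 at ZT18. The peak of Per1 and Per2 then lay at ZT6, and the ZT12 to ZT0 ratios were 2.4 for Per1, 1.44 for Per2 and 0.75 for Per3. In that order 2 of 3 Per1, 8 of 9 Per2 and 2 of 2 Per3 contacts, or 100%, scored higher at ZT12 than at ZT0. The Arntl counts that the study describes by timepoint match the sample labels and not that order.

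The share listed at all 4 timepoints was 75% of Per2 blocks, and among contacts scoring at least 7 at any timepoint 85.7% for Per2 (6 of 7) and 100% for Per3 (1 of 1). Equal list sizes changed none of 15 values by more than the limits used, nor did adding the second Per1 start fragment (5 values), the edge distance (3 values) or subtracting the median score difference of all pairs, 0.14 (3 values).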
